A study of Malus domestica with 8 samples.

Results

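Apple leaves of the line mdagg-4, a CRISPR/Cas9 knock-out line of the cultivar Gala edited in MdAGG, were compared with leaves of non-transformed Gala, called wt here. The comparison used 2 mdagg-4 libraries and 2 wt libraries, 4 of the 8 libraries of the series, and all 52311 transcript features of the deposited files, of which 32373 had enough reads to be tested. The groups were given by the sample labels, and each replicate was a bulk of leaves from 2 independent experiments. Every plant, wt included, had received acibenzolar-S-methyl (ASM), a synthetic inducer of plant defence, at a dose of 0.2 g/l 3 days before its leaves were taken, after 8 weeks of greenhouse culture (22 °C, 80% humidity). Since no untreated leaves entered the comparison, it describes the difference between 2 genotypes under ASM and not the response to ASM. The line mdagg-4 is a single line, and its reference had not been through transformation, so that editing, transformation and regeneration cannot be told apart. The other knock-out lines, mdagg-2 and mdagg-3, with 2 libraries each under the same treatment, shared in the estimate of the spread and are given beside the values of mdagg-4.

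MdAGG stands for the apple agglutinin genes, a family of small lectins, which are proteins that bind sugars without cleaving them. ASM is a functional analogue of salicylic acid that primes the plant's own defences, and agglutinins are among the proteins that apple leaves make under it. CRISPR/Cas9 cuts DNA at sites that match a guide RNA, and the cell's repair leaves small insertions or deletions or, between cuts, longer losses. In plants, the RNA level of many genes follows the number of copies of the chromosome segment that carries them.

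The 8 libraries held 28591909 to 36995911 estimated reads, and mdagg-4 had 34923043 and 36061600, against 34553413 and 36995911 in wt. The scaling factors (TMM, the trimmed mean of M values) were 0.986 and 1.11 in mdagg-4 and 0.992 and 1.04 in wt. Features are known here only by identifiers such as MD13G1190500, where the digits after MD are called the field, and 0 of the 52311 identifiers matched a name in the reference table. MdAGG was therefore not looked up by name, the edit was not checked in the libraries, and no leaf or defence marker could be read. Levels are given as reads, as TMM-scaled CPM (reads relative to library size) or as TPM (relative to library size and transcript length), and differences as log2 of mdagg-4 over wt. In bulk leaf RNA, fewer cells of a type and less RNA per cell cannot be told apart.

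Between mdagg-4 and wt, 1 feature was called higher and 0 lower by edgeR's quasi-likelihood test at a Benjamini-Hochberg adjusted p under 0.05, which is 0.00309% of the features tested. At an unadjusted p under 0.05, edgeR counted 482 features as higher (1.49%) and 471 as lower (1.45%), 953 in all. Their share of the features tested is below the 0.05 that this threshold gives when no feature differs. Why the share is that low was not tested. With 2 libraries a group, a feature that was not called is not thereby shown to be unchanged. The counts at this threshold were 410 higher and 403 lower once the identifier runs MD14G1000100 to MD14G1091300 and MD15G1164700 to MD15G1180600 had been left out. When both runs were removed before scaling and fitting, edgeR again called 1 feature higher and 0 lower among 31708. DESeq2 called many more on the same 8 libraries, with 50 higher and 44 lower, of which 49 and 28 lay outside both runs.

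Both mdagg-4 libraries lay above both wt libraries in 4372 features (13.5%) and below both in 4532 (14%). Shares of this size also arise without any difference between the groups when each has 2 libraries. Where the means of such features also differed at least 2-fold, 473 were higher (1.46%) and 601 lower (1.86%). Outside both runs these last counts were 453 and 556 of 31708. Most of them were scarce, since only 21 of the higher and 81 of the lower ones had a mean log2 CPM above 3. Among the 1126 features with a mean log2 CPM above 7, 0 were higher and 6 lower by that measure.

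The mdagg-4 libraries differed from each other more often than the wt libraries did. Among the 17277 features with a mean log2 CPM above 3, the 2 mdagg-4 libraries differed from each other at least 2-fold in 930 (5.38%), and the 2 wt libraries in 422 (2.44%). The mdagg-2 libraries did so in 1478 and the mdagg-3 libraries in 413. The means of mdagg-4 and wt differed by that much in 146. Taken within replicate numbers, 7 features were at least 2-fold higher in both and 46 at least 2-fold lower in both. Across these features the difference of number 1 and that of number 2 had the same sign in 42.0%, with a Pearson r of -0.21 that describes features and not independent replicates. In the most abundant class, above a mean log2 CPM of 7, the median absolute difference was 0.44 between the mdagg-4 libraries and 0.29 between the wt libraries. Between the group means it was 0.15. Means of 2 libraries vary less than single libraries. The 0.15 and the 146 features are therefore not like for like with the values between libraries.

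**Figure D1:**
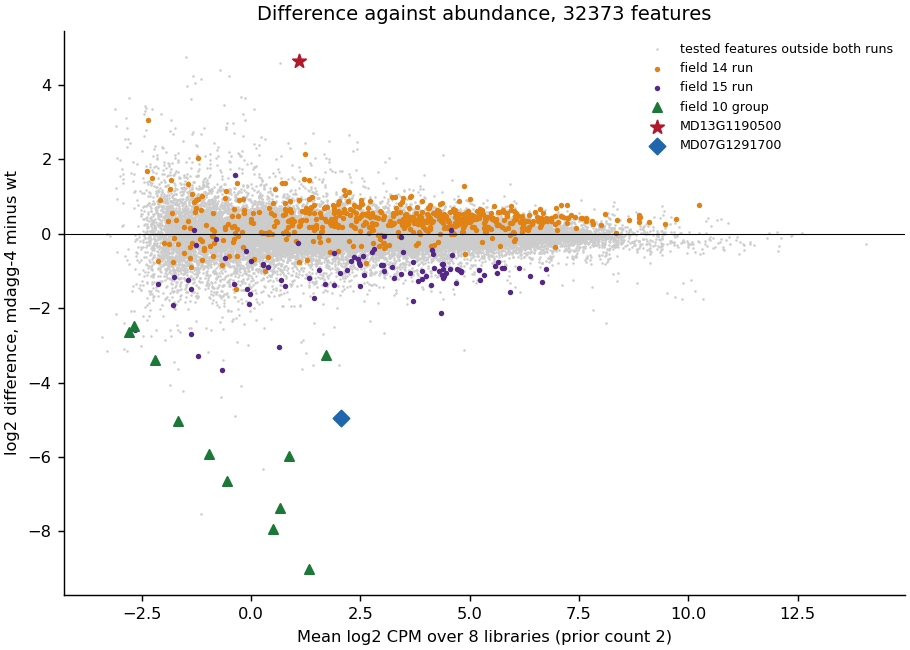
Difference between mdagg-4 and wt (y axis, log2) against the mean level over 8 libraries (x axis, log2 CPM with a prior count of 2), with 1 point for each of the 32373 features tested. The field 15 run lies as a band below 0 and the field 14 run as a band above 0, while the field 10 group includes the lowest points of the plot.

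MD13G1190500 was the feature called higher by edgeR. It had 353 and 478 reads in mdagg-4, against 14 and 14 reads in wt. The mdagg-4 libraries thus lay far above both wt libraries, at 11.1 ± 1.17 CPM in mdagg-4 and 0.386 ± 0.0319 CPM in wt (SD, n = 2 each). The log2 difference was 4.83 with a standard error of 0.31 and an adjusted p of 0.0158 by edgeR's quasi-likelihood test. The other lines had intermediate levels, mdagg-2 with 2.08 ± 0.407 CPM and mdagg-3 with 2.01 ± 0.209 CPM (SD, n = 2 each). Its log2 difference from the mean of those lines was 2.44, with an adjusted p of 0.153 by edgeR. Fitted on the 4 libraries of mdagg-4 and wt alone, MD13G1190500 was not called by edgeR, with an adjusted p of 0.096. DESeq2 on the same 4 libraries gave an adjusted p of 4.11e-24. The call against wt was lost by edgeR without either mdagg-4 library, either wt library or either mdagg-3 library, with adjusted p from 0.0814 to 0.564, and the log2 difference stayed between 4.72 and 4.93.

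MD07G1291700 had the smallest p among the lower features outside both runs. It had 29 and 11 reads in mdagg-4, against 781 and 486 reads in wt, so that the groups were far apart. Its level was 0.558 ± 0.402 CPM in mdagg-4 and 17.7 ± 7.20 CPM in wt (SD, n = 2 each), a log2 difference of -5.00 with a standard error of 0.53. Without mdagg-4 replicate 1 the log2 difference was -6.00, and without mdagg-4 replicate 2 it was -4.38. The adjusted p was 0.175 by edgeR's quasi-likelihood test, 0.0143 by the same test without the filter on low counts and 4.07e-20 by DESeq2, so the call depended on the filter and on the tool. In the other lines mdagg-2 had 82 and 75 reads of it and mdagg-3 had 357 and 447, all between those of mdagg-4 and those of wt.

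**Figure D2:**
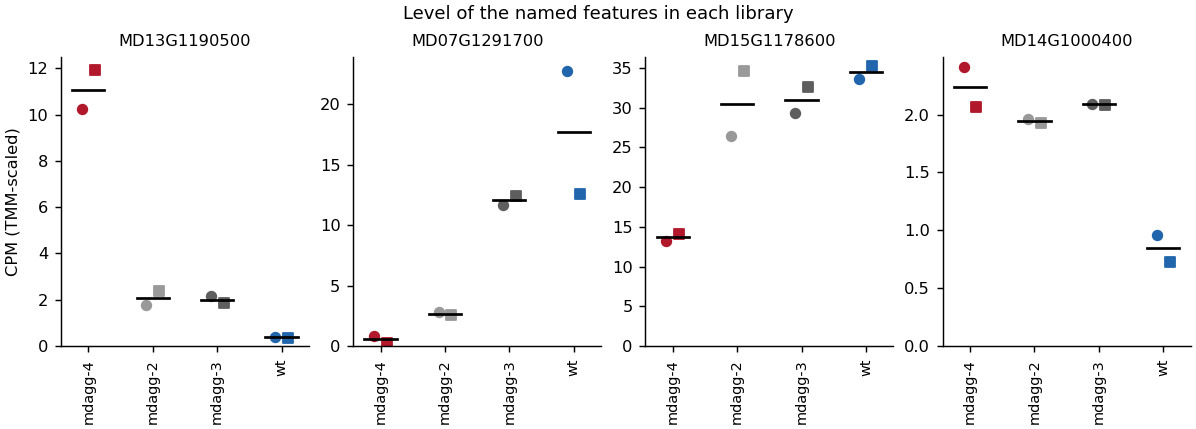
Level of MD13G1190500, MD07G1291700, MD15G1178600 and MD14G1000400 (y axes, CPM from 0) in the libraries of mdagg-4, mdagg-2, mdagg-3 and wt. Circles are replicate 1, squares replicate 2 and black lines the mean of 2 libraries; mdagg-4 stands apart from the other 3 groups in MD13G1190500 and MD15G1178600, and wt stands apart in MD14G1000400.

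The authors' deposited table for mdagg-4 against wt listed 51 features as higher (0.143% of the 35596 with an adjusted p) and 59 as lower (0.166%) at an adjusted p under 0.05. In all 110 of them the mdagg-4 and wt libraries did not overlap, and edgeR's unadjusted p was under 0.05 for 51 of the higher and 58 of the lower. Over all 32373 features tested, 4372 were higher and 4532 lower without overlap, and 482 were higher and 471 lower at that p. The 110 features had been listed for their difference between the same libraries. Their counts thus follow largely from that choice and are no independent check. The log2 fold changes in the authors' deposited table had a median of 2.41 among the higher (1.18 to 7.76) and of -2.46 among the lower (-12.64 to -1.02). Many of these features were nearly off in 1 of the groups. The mean of wt was under 1 CPM in 28 of the 51 higher features, and the mean of mdagg-4 was under 1 CPM in 27 of the 59 lower ones.

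Of the 59 lower features in the authors' deposited table, 15 lay in the field 15 run, which holds 96 of the features tested. Their log2 fold changes in the authors' deposited table had a median of -1.26 (-4.97 to -1.02), against -2.95 (-12.64 to -1.13) in the 44 lower features outside the runs. Of the 51 higher features, 1 lay in the field 14 run, which is 0.176% of its tested features against 0.158% of all tested. Without both runs the authors' deposited table thus held 50 higher and 44 lower features. By field, the largest count of lower features was 20, in field 15, followed by 8 in field 10.

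The features listed in the authors' deposited table were chosen by the difference between mdagg-4 and wt, so the place of the other lines beside them is a description. In 22 of the 51 higher (43.1%) and 39 of the 59 lower features (66.1%) of the authors' deposited table, all 4 libraries of mdagg-2 and mdagg-3 lay on the wt side of both mdagg-4 libraries. The same held for 33.4% of all 473 higher and 46.8% of all 601 lower features at least 2-fold apart without overlap. In 36 of the higher (70.6%) and 14 of the lower listed features (23.7%), all 4 lay on the mdagg-4 side of both wt libraries, against 44.0% and 12.6% of those larger sets. Both held for 13 higher and 6 lower features, in which the other lines were intermediate. For the 15 lower features of the field 15 run, all 15 had the other lines apart from mdagg-4 and 0 had them apart from wt. Against the mean of the other lines, edgeR called 0 features higher and 0 lower in mdagg-4, with 2314 at an unadjusted p under 0.05 (7.15%), and DESeq2 called 20 higher and 55 lower. Without mdagg-2 replicate 2, edgeR called 619 higher and 86 lower in that contrast.

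The field 15 run, MD15G1164700 to MD15G1180600, stood far below the wt level in mdagg-4. The files list 159 features in it, of which 44 had no read in the 4 libraries, 96 were tested and 50 had a mean log2 CPM above 3. The median log2 difference of those 50 was -0.99 (quartiles -1.13 and -0.86), which is a ratio of 0.505, and 49 of the 50 were lower in mdagg-4. The summed level of the run was 949 and 814 CPM in mdagg-4, against 1688 and 1774 CPM in wt. Both mdagg-4 libraries were thus far below both wt libraries, and each did so alone, with medians of -0.92 and -1.03 from the wt mean. Between the wt libraries the median difference in these features was 0.07. The run had been found in these libraries, so these values describe it and are no test of it.

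In the means over libraries, the lowering of the field 15 run was similar across its members, and it was less even within replicate number 2. Of the 50 features, 42 had a log2 difference between -1.5 and -0.5, 3 were lower than that and 5 were nearer to 0 or above it, the extremes being -2.13 and 0.11. Within both replicate numbers 45 were lower in mdagg-4, and 0 were higher in both. In identifier order, the median was -0.94 in the first 17 features, -1.11 in the next 17 and -0.94 in the last 16. By abundance, the medians were -1.01, -0.94 and -0.99 in the scarcest 17, the next 17 and the most abundant 16. The 46 tested features with a mean log2 CPM of 3 or less had a median of -1.02, close to that of the abundant ones.

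The ends of the field 15 run had been set from these libraries, so the step at them is given as a description. The 5 tested features before it had log2 differences of -0.81 to 0.62 with a median of 0.04, and the first 5 inside had -1.26 to -0.77 with a median of -1.20, so that the 2 ranges overlapped. At the far end, the last 5 inside had -1.49 to -0.53 with a median of -0.93, and the 5 after it had -0.35 to 0.35 with a median of -0.10. Identifier order gives no distance, as the files hold no coordinates.

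Single members of the field 15 run were called 0 times by edgeR at an adjusted p under 0.05. DESeq2 on 8 libraries called 16 members of the run lower (16.7% of those tested, against 0.136% of all). At an unadjusted p under 0.05, edgeR counted 67 of its 96 tested features as lower (69.8%) and 1 as higher. Both mdagg-4 libraries lay below both wt libraries in 80 of the 96 (83.3%), and in 43 the difference was also at least 2-fold (44.8%). Over all 32373 features tested, the 3 counts of lower features were 471, 4532 and 601. The run had been found in these libraries, so its counts describe it and are no test of it. MD15G1178600, the member with the smallest p, had 13.3 and 14.2 CPM in mdagg-4, against 33.7 and 35.3 CPM in wt. Its log2 difference was -1.33 with a standard error of 0.19, and its adjusted p was 0.441 by edgeR's quasi-likelihood test and 0.000385 by DESeq2. The other lines had it near the wt level, with mdagg-2 at 30.5 ± 5.81 CPM and mdagg-3 at 31.0 ± 2.35 CPM (SD, n = 2 each).

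The field 15 run was at the wt level in the other lines. The median log2 difference from wt over the same 50 features was 0.01 for mdagg-2 and 0.02 for mdagg-3. Summed levels for mdagg-2 were 1844 and 1657 CPM and for mdagg-3 1911 and 1681 CPM, which lie around those of wt. From the mean of the other lines, mdagg-4 differed by a median of -1.06.

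The field 14 run, MD14G1000100 to MD14G1091300, was higher in mdagg-4 than in wt by a smaller step. The files list 907 features in it, of which 198 had no read in the 4 libraries, 569 were tested and 328 had a mean log2 CPM above 3. The median log2 difference of the 328 was 0.37 (quartiles 0.24 and 0.48), a ratio of 1.30, and 306 of them (93.3%) were higher in mdagg-4. The summed level was 23844 and 20800 CPM in mdagg-4, against 17112 and 16771 CPM in wt, so the groups did not overlap. Medians from the wt mean were 0.37 and 0.35 in the 2 mdagg-4 libraries, and wt replicate 2 differed from wt replicate 1 by -0.05.

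Among single members of the field 14 run, edgeR called 0 at an adjusted p under 0.05. DESeq2 on 8 libraries called 1 higher (0.176% of the tested features of the run, against 0.154% of all). Within both replicate numbers 235 of the 328 were higher in mdagg-4 and 14 were lower, and the differences reached from -0.55 to 1.29. At an unadjusted p under 0.05, edgeR counted 71 of the 569 tested as higher (12.5%) and 1 as lower (0.176%). Over all features tested these shares were 1.49% and 1.45%. Both mdagg-4 libraries lay above both wt libraries in 320 (56.2%, against 13.5% of all). Only 19 of these differed at least 2-fold (3.34%, against 1.46% of all). The run had been found in these libraries, so these counts and the values at its end describe it and are no test of it. MD14G1000400, with the smallest p among the higher members, had 83 and 83 reads in mdagg-4, against 33 and 28 reads in wt. Its log2 difference was 1.40 with a standard error of 0.31 and an adjusted p of 0.689 by edgeR's quasi-likelihood test. The median of the run was 0.41 in its first 110 features by identifier, 0.39 in the next 109 and 0.34 in the last 109. The last 5 tested features inside it had a median of 0.10, and the 5 after it one of -0.03.

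Unlike the field 15 run, the field 14 run had nearly the same level in all 3 knock-out lines. Its median log2 difference from wt was 0.35 for mdagg-2 and 0.39 for mdagg-3, and these values share the wt libraries with that of mdagg-4. From the mean of the other lines, which does not use wt, mdagg-4 differed by a median of -0.01. Whether wt or the knock-out lines carry the unusual level of this run cannot be told apart, as wt is the only group outside them.

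**Figure D3:**
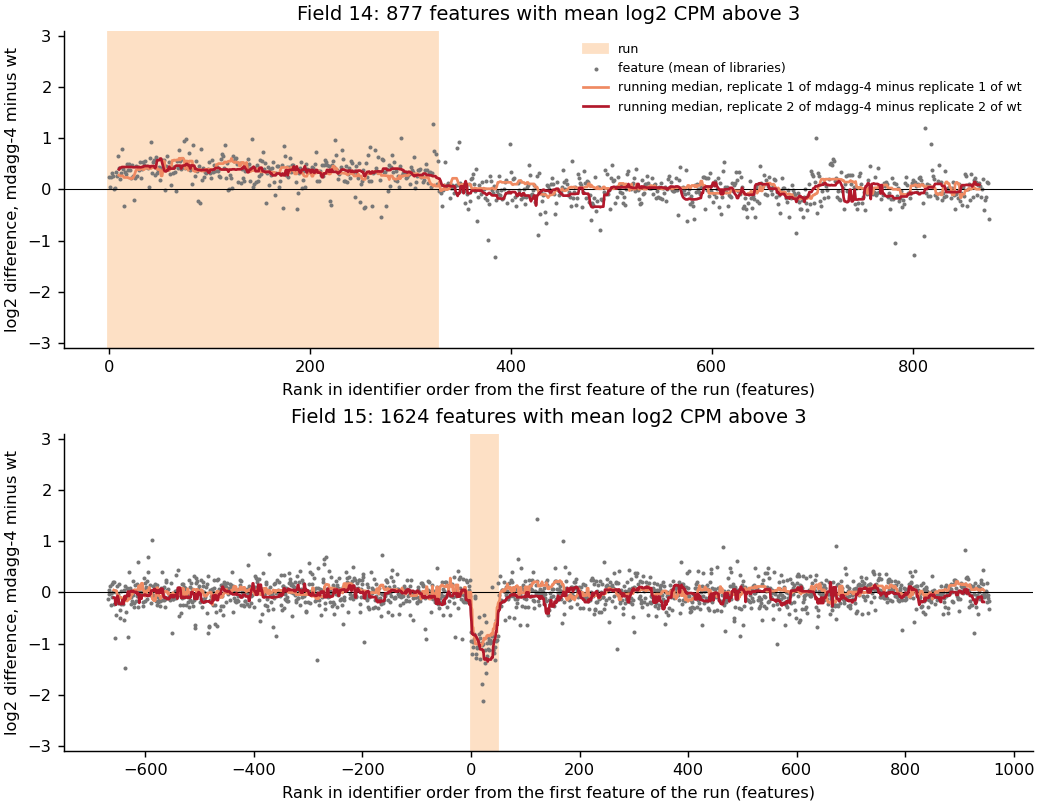
Log2 difference between mdagg-4 and wt (y axis) of features with a mean log2 CPM above 3, in identifier order along field 14 (877 features) and field 15 (1624 features), with the x axis counting features from the first of each run. Grey points are means over libraries, lines are running medians for replicate 1 and replicate 2, and the shaded span is the run; both lines drop to about -1 in the field 15 run and lie above 0 through the field 14 run.

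Outside both runs the level of whole fields was flat. The 16899 remaining features with a mean log2 CPM above 3 had a median log2 difference of -0.02, and 46.6% of them were higher in mdagg-4. Field 14 had a median of 0.11 with its run and -0.01 without it. The medians of the 18 fields lay between -0.03 and -0.01 once both runs were left out.

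**Figure D4:**
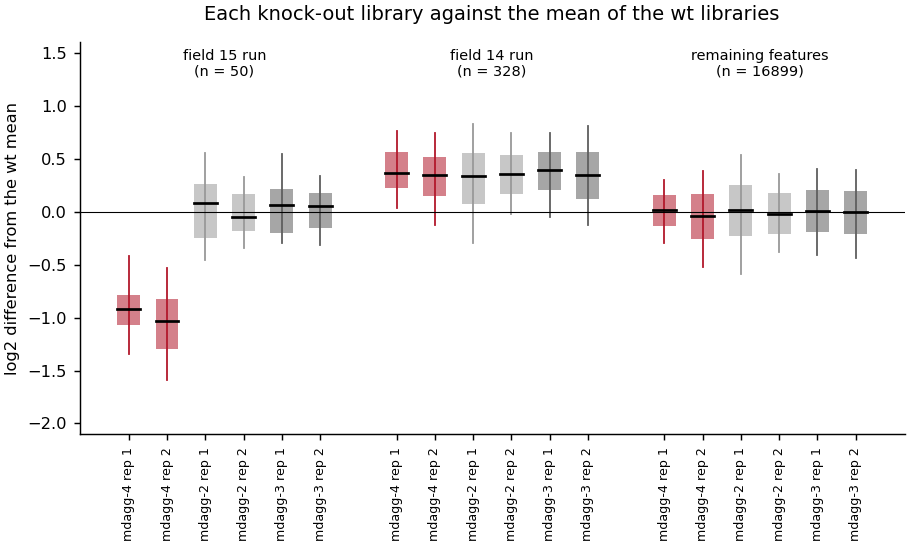
Log2 difference of each knock-out library from the mean of the wt libraries (y axis), for the 50 features of the field 15 run, the 328 of the field 14 run and the 16899 remaining features with a mean log2 CPM above 3. Boxes span the quartiles, thin lines the 10th to 90th percentiles and black bars the medians; only the mdagg-4 boxes lie below 0 in the field 15 run, and all 6 libraries lie above 0 in the field 14 run.

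A group of 14 features in field 10, with identifiers from MD10G1026610 to MD10G1027260 whose number is not a multiple of 100, was almost silent in mdagg-4. It was chosen after its values had been seen. These features resemble each other in length, with transcripts of 495 to 534 bases, 11 of them of 498 bases. The files do not name them, and their relation to MdAGG is not stated. Their summed reads were 124 and 43 in mdagg-4, against 4737 and 2997 in wt. The summed level was 2.34 ± 1.79 CPM in mdagg-4 and 108 ± 42.8 CPM in wt (SD, n = 2 each), which is 46.2-fold lower in mdagg-4, a log2 ratio of -5.53. Without mdagg-4 replicate 1 that log2 ratio was -6.66, and without mdagg-4 replicate 2 it was -4.91. By TPM, which accounts for length, the sums were 12.7 and 4.52 in mdagg-4, against 485 and 293 in wt.

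Of the 14 features, 2 had no read in any library, and in the other 12 both mdagg-4 libraries lay below both wt libraries. In 9 of these 12, mdagg-4 had 0 reads in both libraries and wt had reads in both. MD10G1027250, the most abundant in wt, had 0 and 0 reads in mdagg-4, against 1374 and 883 reads in wt. Its wt mean of 31.5 CPM was at least 389-fold above the level of 3 reads in a mdagg-4 library, the upper limit that a count of 0 allows for counting error alone. In the other 3 of the 12, mdagg-4 kept some reads. MD10G1026810 had 115 and 37 in mdagg-4, against 640 and 622 in wt, while MD10G1026610 had 7 and 6 in mdagg-4, against 752 and 378 in wt, and MD10G1027220 had 2 and 0 in mdagg-4, against 686 and 361 in wt. MD10G1026810 held 91.0% of the reads that mdagg-4 had in the group. The read estimates of all 12 features with reads in wt replicate 1 were not whole numbers, as happens when reads match several transcripts. The split between members is therefore uncertain. Over all features, 70.8% had reads in wt replicate 1, and 32.8% had an estimate there that was not whole.

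Whether single members of the field 10 group were called depended on the tool. The authors' deposited table listed 8 of them as lower, with log2 fold changes from -12.64 to -3.04. They passed the filter on low counts in 11 cases, with edgeR adjusted p from 0.686 to 1 and 9 at an unadjusted p under 0.05. DESeq2 called 5 of them lower on 8 libraries and 8 on the 4 libraries of mdagg-4 and wt. Over all features, the authors' deposited table listed 59 as lower (0.166%), and edgeR counted 471 as lower at that unadjusted p (1.45%). DESeq2 called 44 lower over all features on 8 libraries and 60 on the 4. Around the group, 20 tested features of field 10 whose number is a multiple of 100 had a median log2 difference of 0.12, with a range of -0.90 to 0.94. Elsewhere in the files, 16 tested features also had a number that is not a multiple of 100. Of these, 10 were lower in mdagg-4, 8 of them without overlap, and 1 was higher without overlap. Over all 32373 features tested, 16643 were lower in mdagg-4 and 4532 were lower without overlap. The field 10 group had been chosen after its values were seen, so the counts for identifiers of this kind are a description and no test.

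The other lines varied widely in the field 10 group. Its summed reads were 13 and 465 for mdagg-2 and 868 and 8514 for mdagg-3, so the libraries of a line differed more than 8-fold where those of wt differed less than 2-fold. The lowest mdagg-2 library lay below both mdagg-4 libraries, and the highest mdagg-3 library lay above both wt libraries. The mdagg-3 libraries both lay above those of mdagg-4. The level in mdagg-4 was therefore low in both replicates, while in the other lines replicate 2 was far above replicate 1.

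**Figure D5:**
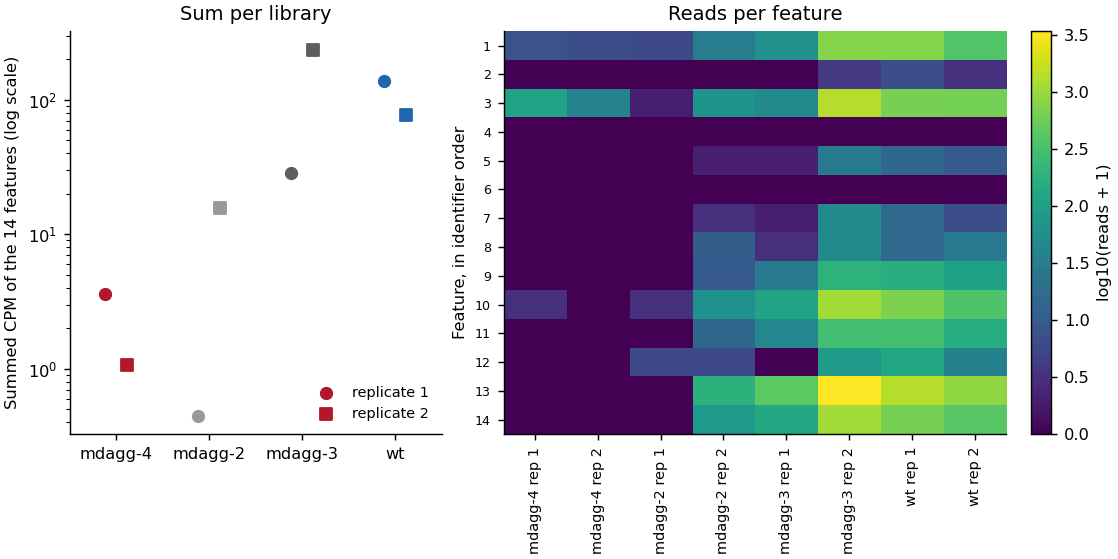
Left, summed level of the 14 features of the field 10 group (y axis, CPM on a log scale) in each library of mdagg-4, mdagg-2, mdagg-3 and wt; right, reads of each feature (colour, log10 of reads + 1), with the features in rows by identifier order and the libraries in columns. Both mdagg-4 libraries lie below 4 CPM, and most of their cells are at 0.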

How the data were processed

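RNA was sequenced from leaves in 8 libraries, 2 each of mdagg-4, mdagg-2, mdagg-3 and wt. The authors deposited, per library, estimated counts and TPM per transcript feature with transcript lengths (used as a score of length only), per the file headers. The submitters' processing notes name Salmon and DESeq2 but no version of either. For the build and the annotation, the sources used here give nothing. Per comparison, the authors' deposited table has a log2 fold change, a p-value and its adjusted form. The series table held 0 columns of other samples.

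Estimated counts were rounded and filtered with filterByExpr (32373 of 52311 features kept). They were scaled by TMM and fitted in R 4.3.3 with edgeR 4.0.16 (quasi-likelihood F test, a mean per group, 8 libraries), with Benjamini-Hochberg adjustment over all features tested; standard errors were derived from the F statistic. DESeq2 1.42.0 was an alternative. Log2 CPM used a prior count of 2, and run medians a mean log2 CPM above 3. Intervals and floors cover counting error only. Replicate numbers were not used as pairs, and p-values measure only the spread between these samples.

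Members, runs and lists were chosen with earlier results of these data known. Features named by rule were, per direction, that with the smallest p outside both runs and that inside the run of its direction; the field 10 group, MD10G1027250, MD10G1026810 and the field 00 stretch were chosen after their values had been seen. Of 8 marker lists with 28 names, 0 names were found among the identifiers.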

Additional observations from a re-analysis of the deposited data

How the results depend on the processing

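Counts of edgeR calls between mdagg-4 and wt were 0 to 1 higher and 0 to 1 lower when each library was left out in turn, with the runs and without them. Without the filter on low counts they were 1 higher and 1 lower, and with the 4 libraries of mdagg-4 and wt alone 0 higher and 0 lower, with 1131 at an unadjusted p under 0.05. DESeq2 called 50 higher and 44 lower on 8 libraries (49 and 28 outside both runs) and 52 and 60 on the 4 libraries (51 and 45 outside both runs). Against the other lines, DESeq2 called 20 higher and 55 lower and edgeR without the filter 1 higher, and the leave-one-out counts reached from 0 to 619 higher and from 0 to 86 lower. With the replicate number as a block, edgeR called 1 higher and 0 lower, with 1256 at an unadjusted p under 0.05. Against the other lines, the block raised the features at an unadjusted p under 0.05 from 2314 to 4112, with 0 called. Correlations of same-numbered deviations between groups ranged from -0.31 to 0.53, the highest between mdagg-2 and mdagg-4. They do not settle whether replicate numbers pair the libraries, and the block changed no call.

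The median of the field 14 run was 0.42 with library totals and 0.34 within replicate number 1, and 0.35 to 0.39 leaving out a library; that of the field 15 run was -0.90 within replicate number 1 and -1.03 to -0.92 leaving out a library. The median of the remaining features, near 0, changed sign to 0.0274 with library totals and 0.0146 within replicate number 1, and reached from -0.0372 to 0.0127 leaving out a library; the cause was not tested. Features at least 2-fold apart without overlap were 825 higher with no filter, 21 higher and 81 lower above a mean log2 CPM of 3, and 98 higher and 92 lower at 4-fold. The log2 ratio of the field 10 sum was -6.66 to -4.91 leaving out a library.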

Other observations

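A stretch of 4 consecutive tested features in field 00, MD00G1107000 to MD00G1107300, was lower in mdagg-4 and was chosen after its values had been seen. MD00G1107300 had 21.8 and 16.7 CPM in mdagg-4, against 44.1 and 45.7 CPM in wt. MD00G1107200 had 17.3 and 15.2 CPM in mdagg-4, against 34.9 and 36.0 CPM in wt. MD00G1107000 had 2.30 and 1.94 CPM in mdagg-4, against 5.93 and 5.63 CPM in wt. In these 3, every mdagg-4 library lay far below every wt library, with log2 differences of -1.23, -1.13 and -1.43. MD00G1107100 had the smallest difference of the 4, at -0.50, with 1.57 and 1.57 CPM in mdagg-4, against 2.36 and 2.13 CPM in wt.

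The authors' deposited table listed 3 of the 4 as lower, while edgeR's adjusted p was 0.556 or more for each. The 5 tested neighbours on each side had log2 differences of -0.17 to 0.57. From the mean of the other lines, mdagg-4 differed by -1.46 in MD00G1107000, -0.66 in MD00G1107100, -1.14 in MD00G1107200 and -1.20 in MD00G1107300 (log2).

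In 13 features mdagg-4 had 0 reads in both libraries and wt had 10 or more in both, and 6 of these belong to the field 10 group. In 2 of the 13, the 4 libraries of the other lines were also at 0. The opposite, 0 reads in both wt libraries and 10 or more in both mdagg-4 libraries, was seen in 7 features, with 11 to 50 reads in mdagg-4.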
